A study of Mus musculus with 6 samples.

Results

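The genes described here are 38 marker and receptor genes of nerve macrophages, taken by gene symbol from a list that was drawn up with earlier results of these data known, out of 39174 gene identifiers in the tables. All 38 symbols were found and all 38 passed the filter on low values. They were ordered by role into 11 lineage genes, 7 immune receptors and adaptors, 8 phagocytic genes, 7 genes of resident macrophages and 5 genes of tissue-lining macrophages such as those of lymph node sinuses and the marginal zone of the spleen. Some genes fit more than 1 role.

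RNA sequencing was done on whole sciatic nerves of 3 wild-type mice, numbered 2, 4 and 5, and 3 Plekhg5-deficient mice (Plekhg5-/-, also called mutant here), numbered 2, 3 and 5, and values are listed in this order. Plekhg5 encodes a guanine nucleotide exchange factor, and the labels do not say how its allele was altered. All mice were adult, at 12 months of age, and no treatment is named. Total RNA was extracted with TRIReagent, libraries were made with a poly(A)-selecting kit (SENSE mRNA-Seq V2), and they were sequenced on a NextSeq instrument. The nerve was taken whole, so macrophage transcripts were measured together with those of Schwann cells, fibroblasts, vessels and any attached tissue, and fewer macrophages cannot be told apart from less RNA per macrophage. Values are FPKM, fragments per kilobase of transcript normalised to the library size, further scaled between libraries as described under the methods. Nothing in the labels says whether the number 2 or 5 links a wild-type to a Plekhg5-deficient mouse, and p-values measure the spread between these samples.

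Macrophages of the peripheral nerve lie in the endoneurium among the fibres and in the surrounding epineurium, and depend on signalling through the Csf1 receptor. They take up myelin debris and dying cells through several receptor systems, among them Fc receptors, complement C1q, scavenger receptors and the TAM receptor tyrosine kinases Mertk and Axl, whose bridging ligand Gas6 binds phosphatidylserine on the target. Macrophages of barrier and lymphoid sites carry further lectins and scavenger receptors, such as the DC-SIGN family member Cd209b, Marco and the phosphatidylserine receptor Timd4.

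Plekhg5 itself was measured at 3.65, 4.13 and 5.26 FPKM in the wild-type mice 2, 4 and 5, against 0.141, 0.140 and 0.0521 FPKM in the mutant mice 2, 3 and 5, so the genotypes did not overlap. Even this difference passed the test over all genes only narrowly (adjusted p = 0.038 by limma, threshold 0.05). Together the 38 genes made up between 0.161% (Plekhg5-deficient mouse 2) and 0.349% (Plekhg5-deficient mouse 5) of the summed FPKM of a library. Both libraries numbered 5 stood apart from the rest. Wild-type mouse 5 carried summed T-cell markers of 113 FPKM against 2.78 to 6.78 in the other libraries, and summed B-cell markers of 128 FPKM against 2.54 to 5.99. In Plekhg5-deficient mouse 5, haemoglobin made up 16.0% of the summed FPKM, against 0.507% to 2.56% in the other libraries. Neutrophil markers summed to 586 FPKM there, against 83.9 to 127 FPKM in the others. Skeletal muscle markers summed to 35739 FPKM, but varied widely in the others too, from 199 FPKM (Plekhg5-deficient mouse 3) to 13039 FPKM (wild-type mouse 2). Results that rest on these libraries are given with and without them.

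Macrophage transcripts were present in every nerve and did not pass the test for a difference between genotypes. At an adjusted p under 0.05 (limma over all 21285 tested genes with Benjamini-Hochberg adjustment) none of the 38 genes was lower and none was higher, where 0.0094% and 0.0282% of all genes were. The smallest adjusted p among the 38 was 0.798 (limma). At an unadjusted p under 0.05, 3 genes were lower (Fcgr1, Gas6, Cd209f) and 2 were higher (Mertk, Gpnmb) in Plekhg5-deficient mice, against 2.69% and 2.41% of all genes. The same genes were those whose genotypes did not overlap. They made up 7.89% of the 38 in the lower and 5.26% in the higher direction, close to the 5.88% and 5.69% of all tested genes. With all libraries on the scaled FPKM, the number of such genes thus does not set the macrophage genes apart. On the FPKM as deposited, 8 of the 38 were lower and 1 was higher without overlap, against 8.66% and 2.46% of all genes, and genes at an unadjusted p under 0.05 split into 753 lower and 239 higher over all genes, against 573 and 514 after scaling. Gas6 and Mertk were under an unadjusted p of 0.05 whichever library was left out. Without wild-type mouse 5, or without Plekhg5-deficient mouse 2, they were the only ones of the 38 under it, and without Plekhg5-deficient mouse 5 they were joined by Fcgr1, Folr2, Cbr2 and Cd209f. When the library number was fitted as a replicate block, those under it were Folr2, Cbr2 and Cd209f lower and Gpnmb higher, so Gas6, Mertk and Fcgr1 were not. Only the numbers 2 and 5 occur in both genotypes, so wild-type mouse 4 and Plekhg5-deficient mouse 3 did not inform that fit's genotype difference. With 1 library left out, groups separate more easily. Of the 38, 13 were lower without overlap when Plekhg5-deficient mouse 5 was left out, against 12.4% of all genes, and 5 when wild-type mouse 4 was, against 9.05%. Of the 37 still tested without wild-type mouse 5, 7 were higher without overlap, against 11.5% of all genes. Without both libraries numbered 5, 13 of the 37 were lower and 7 higher without overlap, against 17.8% and 18.8% of all genes. Among the members, the share lower without overlap exceeded that of all genes on the deposited FPKM and without Plekhg5-deficient mouse 5. It also did without wild-type mouse 4 or both libraries numbered 5, but not with any other single library left out. Log2 fold changes (Plekhg5-deficient against wild-type, of FPKM + 1) were below 0 for 25 of the 38, or 65.8% against 48.9% of all genes, with a median of -0.14 against 0.0065 over all genes. The median was 0.22 without wild-type mouse 5, -0.52 without Plekhg5-deficient mouse 5 and -0.09 without both. The median standard error of the 38 was 0.448 against 0.222 over all genes, so a difference had to be larger here to pass.

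**Figure D1:**
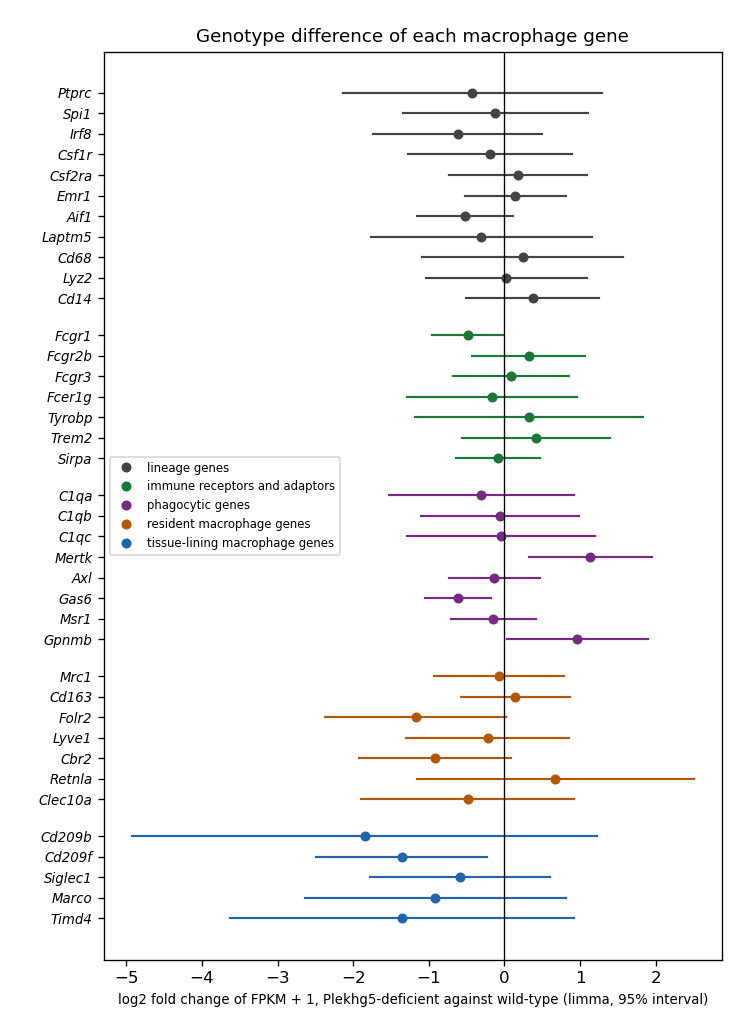
Log2 fold change of FPKM + 1 for each of the 38 genes (horizontal axis, Plekhg5-deficient against wild-type, n = 3 nerves each), with the 95% interval by limma as a line and the gene's role as the colour. All but 5 intervals cross 0, and those of Cd209b and Timd4 are the widest.

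Nerves of the same genotype also differed from each other. In 28 of the 38 genes, or 73.7%, the 2 highest of the 6 libraries were those numbered 5, against 15.7% of all tested genes. This held for 10 of 11 lineage genes, 5 of 7 receptors and adaptors, 5 of 8 phagocytic genes, 6 of 7 resident genes and 2 of 5 tissue-lining genes. The geometric mean of the 11 lineage genes was 8.10, 9.46 and 21.7 FPKM in the wild-type mice 2, 4 and 5, against 8.37, 8.0 and 18.6 FPKM in the mutant mice 2, 3 and 5. Each nerve numbered 5 was thus above all 4 others, and the genotypes overlapped. 

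**Figure D2:**
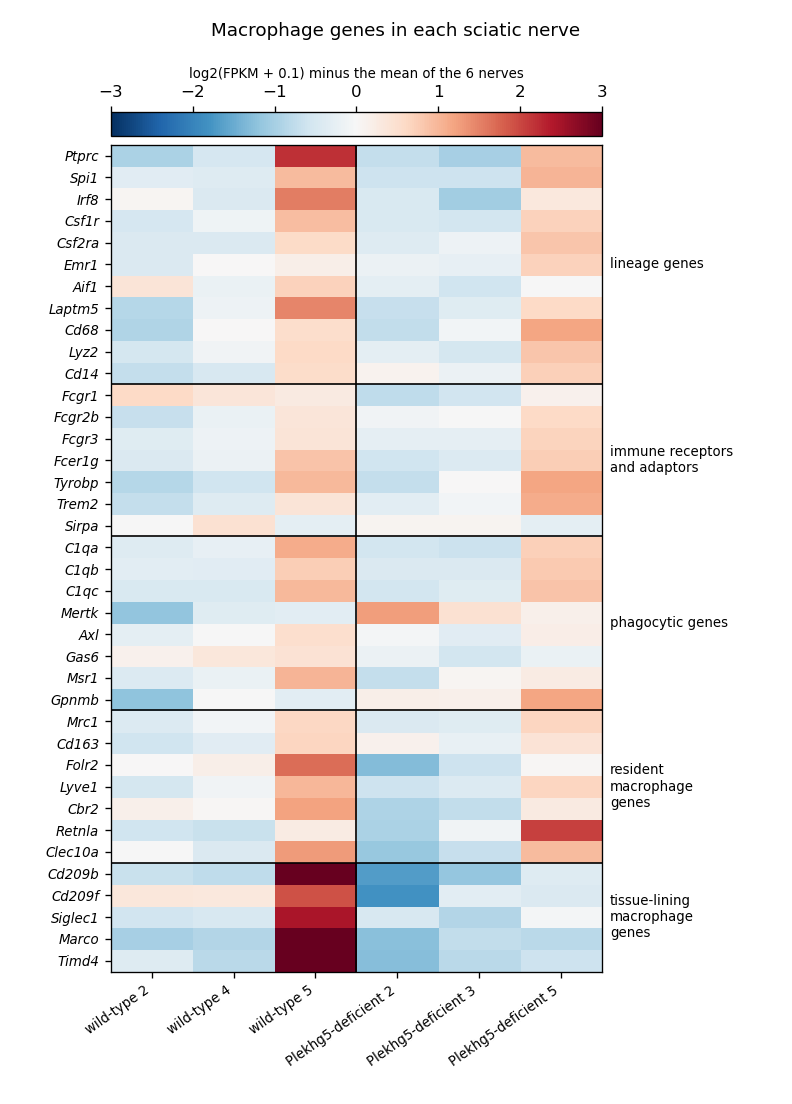
Each row is 1 of the 38 genes and each column 1 nerve. The colour is log2(FPKM + 0.1) minus the mean of the 6 nerves, with the scale ending at -3 and 3, which Cd209b, Marco and Timd4 exceed in wild-type mouse 5. Most rows are red in both nerves numbered 5, and the 5 tissue-lining genes are deepest red in wild-type mouse 5.

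Among the lineage genes, Lyz2, encoding the lysozyme of myeloid cells, was the most abundant at 127, 172 and 281 FPKM in the wild-type mice 2, 4 and 5, against 151, 129 and 331 FPKM in the mutant mice 2, 3 and 5. Its log2 fold change was 0.02 (SE 0.45), and the genotypes overlapped throughout. Of the 50-base stretches in its transcripts, 15.4% are also found in other genes, mainly its neighbour Lyz1, so reads of the pair are partly shared. Cd68, a lysosomal membrane protein of phagocytes, was at 23.2, 43.8 and 63.0 FPKM in wild-type, against 26.1, 40.9 and 99.5 FPKM in mutant mice. Laptm5, another lysosomal membrane protein of leukocytes, was at 19.0, 30.7 and 95 FPKM in wild-type, against 21.1, 26.8 and 51.6 FPKM in mutant mice. In both genes the nerves numbered 5 were highest, and the larger of these was the Plekhg5-deficient one for Cd68 and the wild-type one for Laptm5.

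The pan-leukocyte phosphatase Ptprc was at 1.18, 1.64 and 11 FPKM in wild-type, against 1.40, 1.13 and 4.63 FPKM in mutant mice. Irf8, a transcription factor of monocytes, dendritic cells and B-cells, was at 3.03, 2.14 and 8.67 FPKM in wild-type, against 2.10, 1.37 and 3.62 FPKM in mutant mice. These were the only lineage genes at least 2-fold higher in wild-type mouse 5 than in every other library, and both are also expressed by lymphocytes, whose markers were high in that nerve. The part of the lymphocyte markers in this result was not tested. Csf1r, the receptor for the macrophage growth factors Csf1 and Il34, had a log2 fold change of -0.19 (SE 0.45). In wild-type mice Csf1r was at 9.31, 12.1 and 25.4 FPKM, and in Plekhg5-deficient mice at 9.68, 8.99 and 21.6 FPKM, so the genotypes overlapped. The other lineage genes, Spi1, which encodes the transcription factor PU.1, Csf2ra (a receptor subunit for Csf2), Emr1 (the F4/80 antigen), Aif1 (the actin-binding protein Iba1) and Cd14 (the lipopolysaccharide co-receptor), had log2 fold changes between -0.52 (Aif1) and 0.38 (Cd14).

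The promoters of these genes were examined because the genes moved together between nerves. PU.1 binds purine-rich elements built around GGAA, and the box GAGGAA was searched on both strands (as GAGGAA or TTCCTC) in the 300 bases around each start site, 250 before and 50 after, in RefSeq promoter windows of GRCm38.p6. Windows were given for 27 of the 38 genes. None was given for Emr1, Csf1r, Cd14, C1qa, Tyrobp, Lyve1, Siglec1, Clec10a, Msr1, Spi1 and Sirpa. The box was found in 15 of the 27, or 55.6%, against 31.3% of all 27025 genes with a window. In the last 60 bases before the start, a distance chosen after the values were seen, it was found in 8 of the 27, or 29.6%, against 7.5% of all genes. Of the 4 tissue-lining genes with a window, 1 (Marco) held a box and none held it in those 60 bases. A match is only a match of letters and was not tested for binding. The 100 bases before the start site are printed 5′ to 3′ on the strand of the gene for 6 genes that hold the box there, given in capitals, and for 5 genes that the results below turn on and that do not.
Aif1 (chr17:35176053-35176152, minus strand): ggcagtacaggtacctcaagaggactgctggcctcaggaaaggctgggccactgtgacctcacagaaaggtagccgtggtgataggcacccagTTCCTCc
Csf2ra (chr19:61228419-61228518, minus strand): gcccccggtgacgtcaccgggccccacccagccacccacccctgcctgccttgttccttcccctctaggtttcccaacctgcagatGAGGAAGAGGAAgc
Trem2 (chr17:48346301-48346400, plus strand): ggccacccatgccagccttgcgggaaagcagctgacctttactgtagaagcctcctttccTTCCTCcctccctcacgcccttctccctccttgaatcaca
C1qb (chr4:136886201-136886300, minus strand): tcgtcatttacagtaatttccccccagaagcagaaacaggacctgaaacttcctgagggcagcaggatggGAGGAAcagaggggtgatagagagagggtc
Fcgr1 (chr3:96293970-96294069, minus strand): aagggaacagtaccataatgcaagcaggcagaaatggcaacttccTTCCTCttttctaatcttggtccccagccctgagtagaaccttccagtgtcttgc
Cbr2 (chr11:120732022-120732121, minus strand): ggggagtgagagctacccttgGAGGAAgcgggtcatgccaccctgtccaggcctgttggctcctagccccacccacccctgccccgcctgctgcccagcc
Folr2 (chr7:101845332-101845431, minus strand): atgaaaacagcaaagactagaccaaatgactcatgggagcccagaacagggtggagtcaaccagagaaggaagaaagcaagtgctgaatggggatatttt
Cd209f (chr8:4105765-4105864, minus strand): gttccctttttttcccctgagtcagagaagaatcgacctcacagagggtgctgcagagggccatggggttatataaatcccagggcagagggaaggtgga
Cd209b (chr8:3926842-3926941, minus strand): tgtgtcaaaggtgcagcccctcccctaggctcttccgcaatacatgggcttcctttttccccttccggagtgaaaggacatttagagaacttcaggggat
Gpnmb (chr6:49036418-49036517, plus strand): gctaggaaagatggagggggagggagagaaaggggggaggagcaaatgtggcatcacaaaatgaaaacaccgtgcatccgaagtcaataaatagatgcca
Mertk (chr2:128698815-128698914, plus strand): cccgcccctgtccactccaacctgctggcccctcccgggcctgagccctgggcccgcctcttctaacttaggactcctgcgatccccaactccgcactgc
In Csf2ra the box occurs in tandem at positions -14 and -8 from the start site, counted to its leftmost base. It lies at -7 in Aif1, -30 in C1qb, -40 in Trem2, -55 in Fcgr1 and -79 in Cbr2. Of these, Aif1, Trem2 and Fcgr1 hold it as TTCCTC. In Aif1 and Fcgr1, unlike the other genes printed with the box, the nerves numbered 5 were not the 2 highest libraries. The windows of Folr2, Cd209f, Cd209b, Gpnmb and Mertk hold no GAGGAA, and nothing about PU.1 follows from that.

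The immune receptors and adaptors had a median log2 fold change of 0.08, which was 0.29 without wild-type mouse 5, -0.18 without Plekhg5-deficient mouse 5 and -0.02 without both. Their most abundant member was Fcer1g, the signalling chain shared by several activating Fc receptors, at 114, 137 and 280 FPKM in wild-type, against 103, 117 and 259 FPKM in mutant mice. Tyrobp (Dap12), the adaptor through which Trem2 signals, was at 50.1, 59.7 and 180 FPKM in wild-type, against 55.6, 92.6 and 206 FPKM in mutant mice. Both adaptors were highest in the nerves numbered 5 of either genotype. Sirpa, the inhibitory receptor for Cd47, did not follow that order. Its values were 27.8, 38.5 and 23.0 FPKM in wild-type, against 29.9, 29.8 and 23.0 FPKM in mutant mice, so the nerves numbered 5 were the lowest of their genotype.

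Fcgr1, the high-affinity receptor for IgG (chr3:96282909-96293969, GRCm38), was the one receptor without overlap. It stood at 2.05, 1.73 and 1.62 FPKM in the wild-type mice 2, 4 and 5, against 0.741, 0.853 and 1.46 FPKM in the mutant mice 2, 3 and 5. Every Plekhg5-deficient mouse was below every wild-type mouse, although nerve 5 came close to the wild-type level. The mean was 1.80 ± 0.225 FPKM (SD, n = 3) in wild-type and 1.02 ± 0.387 FPKM (SD, n = 3) in Plekhg5-deficient mice. The log2 fold change of FPKM + 1 was -0.49 (SE 0.19, adjusted p = 0.972 by limma). The inhibitory IgG receptor Fcgr2b and the activating receptor Fcgr3, which are more abundant, had log2 fold changes of 0.32 and 0.08, and 9.58% of the 50-base stretches of Fcgr3 recur in other genes, mainly Fcgr2b. Trem2, a lipid-sensing receptor of phagocytes, was at 3.17, 4.04 and 6.99 FPKM in wild-type, against 4.27, 4.97 and 11.7 FPKM in mutant mice, with overlap and a log2 fold change of 0.42. Of the receptors whose FPKM overlapped between genotypes, 4 of 6 had a log2 fold change above 0.

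**Figure D3:**
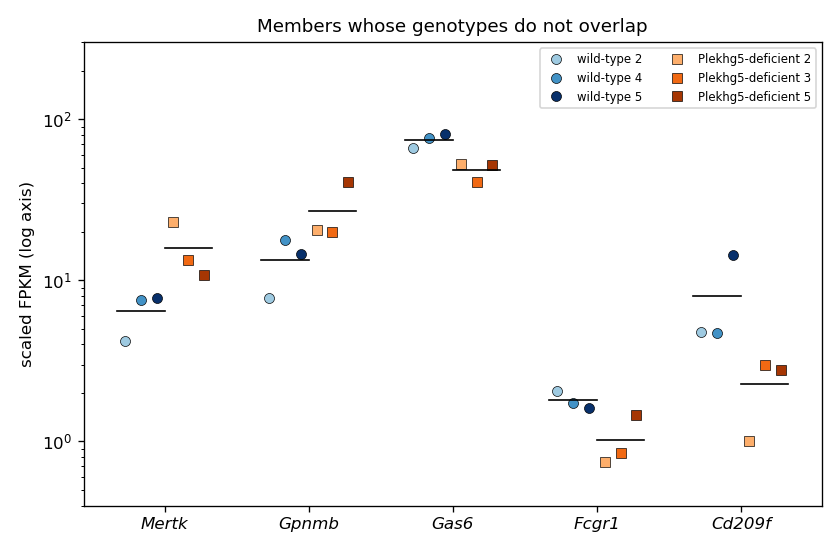
Scaled FPKM on a log axis of the 5 genes whose genotypes did not overlap, with 1 point per nerve and a line at the mean of each genotype. Mertk and Gpnmb are higher and Gas6, Fcgr1 and Cd209f lower in all 3 Plekhg5-deficient mice.

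Log2 fold changes of the phagocytic genes lay on both sides of 0, and their median log2 fold change was -0.09. The 3 genes of complement C1q, the initiator of the classical pathway and an opsonin for debris, were highest in the nerves numbered 5. C1qb was at 63.7, 62.1 and 131 FPKM in wild-type, against 58.8, 58.2 and 135 FPKM in mutant mice. C1qc was at 45.3, 44.8 and 123 FPKM in wild-type, against 42.1, 48.0 and 112 FPKM in mutant mice. In both genes the genotypes overlapped, and log2 fold changes were -0.06 and -0.04, with -0.30 for C1qa.

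Of the TAM system, the receptor Mertk and the ligand Gas6 had log2 fold changes of opposite sign and no overlap, while the receptors Axl and Tyro3 and the ligand Pros1 overlapped between genotypes. Mertk (chr2:128698956-128802894), a receptor for the uptake of apoptotic cells and myelin, was at 4.18, 7.55 and 7.75 FPKM in the wild-type mice 2, 4 and 5, against 23.1, 13.4 and 10.8 FPKM in the mutant mice 2, 3 and 5. All 3 Plekhg5-deficient mice were above all wild-type mice, and the highest was nerve 2, not nerve 5, so the gene did not follow the lineage genes between nerves. The mean was 2.43-fold higher in Plekhg5-deficient mice (15.8 ± 6.51 FPKM, SD, n = 3) than in wild-type mice (6.49 ± 2.01 FPKM, SD, n = 3). The log2 fold change was 1.13 (95% interval 0.32 to 1.95, unadjusted p = 0.0135, adjusted p = 0.814 by limma). It was 1.49 without both nerves numbered 5. On the FPKM as deposited, without scaling between libraries, Mertk was at 8.05 in Plekhg5-deficient mouse 5 and 8.44 in wild-type mouse 4, so that the genotypes overlapped.

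Gas6 (chr8:13465374-13494535), the bridging ligand, which fibroblasts and vessels also express, was at 66.0, 76.2 and 81.4 FPKM in wild-type, against 52.6, 40.9 and 52.3 FPKM in mutant mice. The genotypes did not overlap, and the spread within each was the smallest relative to the mean among the 5 such genes. The mean of Gas6 was 1.53-fold lower in mutant mice (48.6 ± 6.66 against 74.5 ± 7.86 FPKM, SD, n = 3 each). Its log2 fold change of FPKM + 1 was -0.61 (SE 0.18, unadjusted p = 0.0129, adjusted p = 0.798 by limma). The log2 fold change of Gas6 lay between -0.70 and -0.49 when each nerve was left out in turn. Axl, another TAM receptor, was at 28.5, 34.7 and 49.5 FPKM in wild-type, against 33.5, 27.7 and 39.9 FPKM in mutant mice, with a log2 fold change of -0.13. Tyro3, the third TAM receptor, was at 0.310 to 1.24 FPKM, with a log2 fold change of -0.096, and Pros1, the second TAM ligand, had a log2 fold change of 0.25.

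Gpnmb (chr6:49036518-49058182), a glycoprotein of lipid-laden phagocytes, was at 7.71, 17.9 and 14.5 FPKM in wild-type, against 20.4, 20.0 and 40.9 FPKM in mutant mice. All Plekhg5-deficient mice were above all wild-type mice, and Plekhg5-deficient mouse 5 was at 2.0 times the next. The mean was 2.03-fold higher (27.1 ± 11.9 against 13.4 ± 5.19 FPKM, SD, n = 3 each). The log2 fold change of FPKM + 1 was 0.96 (SE 0.39, unadjusted p = 0.0449, adjusted p = 0.972 by limma), and it was 0.73 without both nerves numbered 5. Msr1, the scavenger receptor A, was near the lower end of the range at 0.377 to 1.48 FPKM, with a log2 fold change of -0.15.

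Of the 7 resident macrophage genes, Folr2 and Cbr2 had the lowest log2 fold changes and Retnla the highest. Folr2 (chr7:101839990-101845331), the folate receptor beta of tissue macrophages, was at 13.1, 14.6 and 41.5 FPKM in the wild-type mice 2, 4 and 5, against 5.12, 8.39 and 13.2 FPKM in the mutant mice 2, 3 and 5. Wild-type mouse 5 was the highest, and Plekhg5-deficient mouse 5 lay just above wild-type mouse 2, so the genotypes overlapped by that pair. The mean of Folr2 was 2.59-fold lower in mutant mice. Its log2 fold change of FPKM + 1 was -1.17 (SE 0.50, unadjusted p = 0.0539, adjusted p = 0.972 by limma). Cbr2 (chr11:120729489-120732114), a carbonyl reductase that marks resident macrophages, was at 47.4, 43.7 and 97.9 FPKM in wild-type, against 22.3, 25.2 and 51.0 FPKM in mutant mice. Here too only Plekhg5-deficient mouse 5 reached the wild-type range. The mean of Cbr2 was 1.92-fold lower. Its log2 fold change of FPKM + 1 was -0.92 (SE 0.42, unadjusted p = 0.0684, adjusted p = 0.974 by limma).

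Without both nerves numbered 5 the log2 fold change of Folr2 was -0.97 (SE 0.27) and that of Cbr2 -0.91 (SE 0.18, adjusted p = 0.541 by limma). To relate each gene to the lineage genes of the same nerve, its FPKM was also divided by the geometric mean of the 11 lineage genes in that nerve, scaled to an average of 1. This was chosen after the values had been seen. On that scale Folr2 was at 18.2, 17.4 and 21.6 in wild-type and 6.91, 11.8 and 8.02 in Plekhg5-deficient mice. Cbr2 was at 66.1, 52.1 and 51.0 in wild-type and 30.0, 35.6 and 31.0 in Plekhg5-deficient mice. Neither gene then overlapped between genotypes, and the wild-type mouse 5 values fell in with those of the other wild-type mice. Relative to the lineage genes, 5 of the 38 were lower without overlap (C1qa, Folr2, Cbr2, Cd209b, Cd209f) and 4 were higher (Csf2ra, Cd14, Trem2, Gpnmb), or 13.2% and 10.5%, against 1.98% and 2.43% of all tested genes. Fcgr1, Gas6 and Mertk, which did not overlap on the scaled FPKM, overlapped on this scale. Mertk was at 5.83, 9.01 and 4.03 in wild-type and 31.2, 18.9 and 6.56 in Plekhg5-deficient mice. Gas6 was at 92.0, 90.9 and 42.4 in wild-type and 70.9, 57.7 and 31.7 in Plekhg5-deficient mice. Fcgr1 was at 2.86, 2.06 and 0.842 in wild-type and 0.999, 1.20 and 0.886 in Plekhg5-deficient mice. C1qa separated only narrowly, with 28.2 in Plekhg5-deficient mouse 5 against 28.3 in wild-type mouse 4. Csf2ra and Cd14 are themselves among the lineage genes of the divisor, and none of the 38 passed the test on this scale, where Cd209f alone was under an unadjusted p of 0.05. The divisor also holds Ptprc and Irf8, which lymphocytes express and which were at least 2-fold highest in wild-type mouse 5. It is therefore not a measure of macrophages alone. The shares of all genes are not a like-for-like comparison, because the divisor was built from genes of the same kind as the 38.

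**Figure D4:**
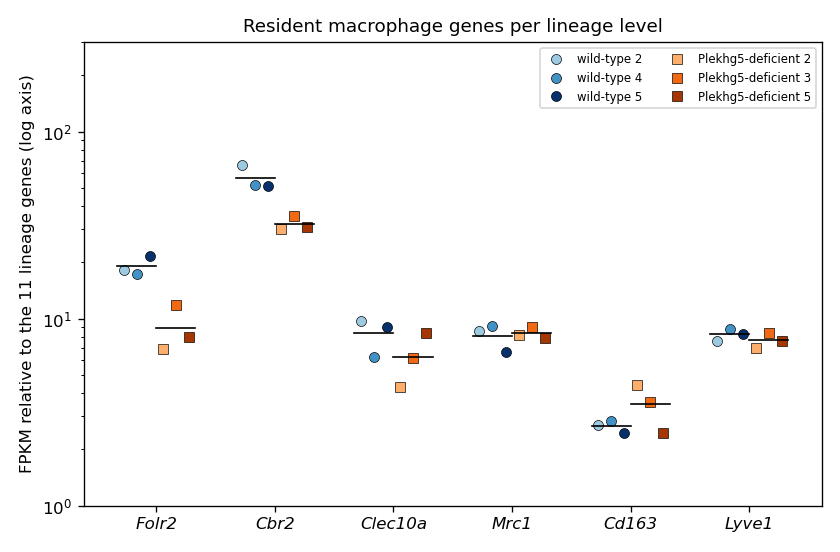
FPKM relative to the 11 lineage genes on a log axis for the resident macrophage genes other than Retnla, with 1 point per nerve and a line at the mean of each genotype. Folr2 and Cbr2 are lower in all 3 Plekhg5-deficient mice, whereas Clec10a, Mrc1, Cd163 and Lyve1 overlap.

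The other resident genes did not separate the genotypes. Mrc1 (the mannose receptor Cd206), Cd163 (the haptoglobin-haemoglobin scavenger receptor), Lyve1 (a hyaluronan receptor shared with lymphatic endothelium) and Clec10a (a galactose-type lectin) had log2 fold changes of -0.07, 0.14, -0.22 and -0.49. Mrc1 was at 6.13, 7.67 and 12.7 FPKM in wild-type, against 6.07, 6.35 and 12.9 FPKM in mutant mice, which covered nearly the same range in both genotypes. Retnla, the secreted protein Relm alpha of alternatively activated macrophages, had the highest FPKM of the 38. It stood at 522, 499 and 947 FPKM in wild-type, against 408, 741 and 3303 FPKM in mutant mice. Plekhg5-deficient mouse 5 was 3.49-fold above the next library. Only Retnla and Gpnmb were at least 2-fold highest in that mouse, against 3.9% of all tested genes. For Retnla the genotypes overlapped, and the log2 fold change was 0.67. Relative to the lineage genes it was at 727, 596 and 492 in wild-type and 550, 1046 and 2005 in Plekhg5-deficient mice, also with overlap. Adipose tissue also expresses Retnla. The summed adipocyte markers were 2236, 1960 and 2720 FPKM in the wild-type mice 2, 4 and 5, against 2295, 790 and 5958 FPKM in the mutant mice 2, 3 and 5. Plekhg5-deficient mouse 3 thus had the lowest adipocyte sum but more Retnla than wild-type mice 2 and 4. The part of these markers in the Retnla level was not tested.

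The 5 tissue-lining genes shared a high value in 1 nerve. Each was at least 2-fold higher in wild-type mouse 5 than in every other library, where 3.94% of all tested genes were. Marco passed the filter on low values only through that nerve, so its place in this count was fixed in advance. Cd209b (chr8:3917657-3926814) was at 2.15, 1.99 and 88.4 FPKM in wild-type, against 1.0, 1.5 and 2.60 FPKM in mutant mice, so wild-type mouse 5 was 34.0-fold above the next. Timd4 was at 1.01, 0.722 and 21.6 FPKM in wild-type, against 0.493, 0.717 and 0.836 FPKM in mutant mice. Marco was at 0.0197, 0.0293 and 5.92 FPKM in wild-type, listed at 0 in Plekhg5-deficient mouse 2, and at 0.0436 and 0.0366 FPKM in nerves 3 and 5. Outside wild-type mouse 5 these 3 genes stayed at or below 2.60 FPKM in either genotype. Siglec1 (sialoadhesin, Cd169) was at 0.434, 0.467 and 4.21 FPKM in wild-type, against 0.468, 0.332 and 0.663 FPKM in mutant mice.

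The lymphocyte markers moved with these genes. In wild-type mouse 5, 11 of 11 T-cell markers and 8 of 8 tested B-cell rows exceeded every other library by at least 2-fold. Cd5 and the tested row of Cr2 passed the filter only through that nerve, so their place in this count was fixed in advance. A second row of Cr2, below the filter, was highest in Plekhg5-deficient mouse 2 (0.108 FPKM, against 0.0873 in wild-type mouse 5). Of 6 genes listed for lymph node stroma, 5 were also at least 2-fold highest in wild-type mouse 5. That list includes Ccr7, a chemokine receptor that lymphocytes carry. It summed to 352 FPKM there, 198 FPKM in Plekhg5-deficient mouse 5 and 28.4 to 45.1 FPKM in the others. Among the most abundant lymphocyte markers, the B-cell receptor chain Cd79b reached 53.2 FPKM in wild-type mouse 5 and 1.23 to 2.55 FPKM elsewhere. Cd3g, a chain of the T-cell receptor complex, reached 29.6 FPKM there and 0.248 to 0.836 FPKM elsewhere. The part of these cells in the tissue-lining genes was not tested. The 5 genes summed to 135 FPKM in wild-type mouse 5 and to 2.97 to 8.42 FPKM in the others. Their median log2 fold change was -1.35 with that nerve and -0.19 without it, where Marco had no value. The size of that median thus rested on 1 nerve. For Cd209f alone, the log2 fold change stayed between -1.60 and -0.89 when each nerve was left out in turn.

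**Figure D5:**
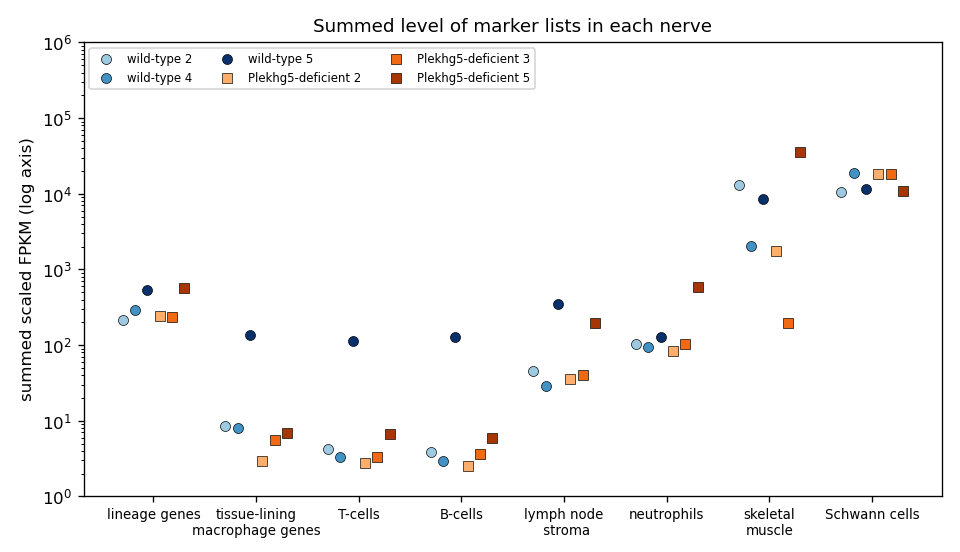
Summed scaled FPKM of marker lists on a log axis, with 1 point per nerve. Wild-type mouse 5 is the highest for tissue-lining, T-cell, B-cell and lymph node stroma genes, and Plekhg5-deficient mouse 5 for neutrophil and skeletal muscle genes, while lineage genes are high in both.

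Cd209f (chr8:4102787-4105835), a further lectin of the DC-SIGN family, was the one tissue-lining gene without overlap. It stood at 4.81, 4.72 and 14.5 FPKM in the wild-type mice 2, 4 and 5, against 1.01, 3.0 and 2.78 FPKM in the mutant mice 2, 3 and 5. All Plekhg5-deficient mice were below all wild-type mice. The mean was 3.53-fold lower. The log2 fold change of FPKM + 1 was -1.36 (SE 0.47, unadjusted p = 0.0252, adjusted p = 0.929 by limma), and it was -1.03 without both nerves numbered 5. Relative to the lineage genes Cd209f was at 6.70, 5.63 and 7.52 in wild-type and 1.36, 4.23 and 1.69 in Plekhg5-deficient mice. Of the 50-base stretches in its transcripts, 29.8% are also found in other genes, mainly its neighbour Cd209g, so reads of these 2 genes can be exchanged. Cd209g was at 2.41, 3.10 and 7.58 FPKM in wild-type, against 0.544, 1.27 and 1.14 FPKM in mutant mice, with the same order of genotypes. A further family member on the list of dendritic cells, Cd209a, was at 3.92, 5.05 and 6.63 FPKM in wild-type, against 2.32, 1.52 and 2.11 FPKM in mutant mice. Cd209a did not overlap between genotypes and had a log2 fold change of -1.04 (SE 0.24, unadjusted p = 0.0035, adjusted p = 0.576 by limma).

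Sequence shared with other genes also touched Cbr2 (12.1% of 50-base stretches) and Clec10a (9.02%, mainly Mgl2). Exons of Folr2 overlap those of the antisense gene Gm10602 over 63.1% of their length in the annotation used here (GENCODE vM21), which is later than the tables. The tables place Gm10602 outside Folr2, at 0.497 to 1.79 FPKM, and no source used here says whether reads were counted by strand.

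Other genes of the pathway did not pass the test either. Of 23 further macrophage genes, none was called, and 9 had log2 fold changes below and 14 above 0, with a median of 0.17. In 15 of the 23 the nerves numbered 5 were the highest. The fatty acid translocase Cd36, which adipocytes and endothelium also express, was at 105, 137 and 91.9 FPKM in wild-type, against 95.6, 42.3 and 169 FPKM in mutant mice.

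Of 9 measured rows for ligands and partner receptors, none passed the test. Csf1, one of the ligands of Csf1r, was at 11.7, 14 and 21.2 FPKM in wild-type, against 9.98, 7.43 and 9.33 FPKM in mutant mice. Csf1 did not overlap between genotypes, with a log2 fold change of -0.71 (SE 0.25, unadjusted p = 0.0269, adjusted p = 0.938 by limma). The other ligand, Il34, was at 24.0, 41.7 and 44.8 FPKM in wild-type, against 38.8, 41.6 and 35.3 FPKM in mutant mice, with overlap and a log2 fold change of 0.11. Cd47, the ligand of Sirpa, is listed under 2 identifiers, and the more abundant was at 44.4, 52.3 and 49.0 FPKM in wild-type, against 53.7, 47.7 and 59.6 FPKM in mutant mice, with overlap. Monocyte markers did not differ past the test either: none of 4 was called, and Ly6c2, a surface antigen of inflammatory monocytes, was at 33.9 to 108 FPKM in wild-type and 51.3 to 111 FPKM in Plekhg5-deficient mice.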

How the data were processed

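The deposited values are FPKM per gene, which the authors estimated separately for each library with Cufflinks 2.2.1 after trimming (Trim Galore 0.4.0) and STAR mapping to GRCm38. The tables hold no counts, and their annotation release, read depth and strand setting were not given in the sources used here. Where an identifier occupied several rows (19 cases), its FPKM were added up. Cufflinks flagged no gene in the wild-type libraries, and 1, 2 and 6 genes in Plekhg5-deficient libraries 2, 3 and 5.

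Median-of-ratios factors from 19217 genes were used for scaling. The filter left 21285 genes whose mean reached 0.1 FPKM in a genotype. Log2(FPKM + 1), which understates changes of weakly expressed genes, was modelled on genotype alone in limma 3.58.1 (R 4.3.3) with trended variance. Log2 fold changes are thus differences between genotype means of log2(FPKM + 1), not logarithms of the folds between mean FPKM. P-values were adjusted by Benjamini-Hochberg, with calls under 0.05. An exact permutation test of 3 against 3 cannot go below 0.1 and was not used. On simulated libraries the test recovered 9 of 67 genes altered by a log2 change of 1, 40 of 67 altered by 2 and 55 of 66 altered by 3, at 6 false calls.

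The members and lists were chosen with earlier results of these data known. Values per library are given for members without overlap, members at least 2-fold highest in 1 library, those under an unadjusted p of 0.05, and the 3 of highest mean in each list. In other lists, genes without overlap under that p and the 2 of highest mean were eligible, and lists of tissues outside the text were left out. A gene that this rule names is not reported here. Csf1r, Trem2, Axl, Mrc1, Cd209g and Pros1 were added after their values were seen. Alternatives varied the pseudocount (0.1, 0.5), the FPKM minimum (1, none), the scaling (deposited values, upper quartile), the variance model (untrended, robust, array weights), the status filter, a replicate block and the libraries left out. Division by the lineage genes was chosen after seeing the data.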

Additional observations from a re-analysis of the deposited data

How the results depend on the processing

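No member passed the adjusted test with any of the 19 alternatives run, and the smallest adjusted p of a member was 0.157 (Mertk, limma with array weights). Plekhg5 itself passed in the main fit (adjusted p = 0.038 by limma). It did not pass without both libraries numbered 5 (0.082) or relative to the lineage genes (0.137), nor with 1 library left out. The lack of called members in those alternatives therefore says little about whether members differ. Over all genes, 2 were called lower and 6 higher. Counts that moved were 1 lower with a pseudocount of 0.1, with a minimum of 1 FPKM and with a robust variance, 0 lower and 2 higher with no filter, 8 lower and 14 higher with array weights, and 0 lower without both libraries numbered 5 or relative to the lineage genes. Leaving out 1 library at a time gave 0 lower and 0 to 8 higher.

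Members without overlap numbered 3 lower and 2 higher. On the FPKM as deposited they were 8 and 1 (8.66% and 2.46% of all genes), without both libraries numbered 5 they were 13 and 7 (17.8% and 18.8%), and relative to the lineage genes 5 and 4 (1.98% and 2.43%). With 1 library left out they were 3 (without wild-type 5) to 13 (without Plekhg5-deficient 5) lower and 2 to 7 (without wild-type 5) higher.

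The numbers 2 and 5 occur in both genotypes, but only 2 pairs could be formed. Across genes, deviations correlated at 0.073 for number 2 and 0.58 for number 5, and at -0.52 to 0.46 for the other combinations of mice. These values do not settle whether the numbers pair the mice, and the main fit left the number out. With a replicate block, 0 genes were called lower and 0 higher, Sirpa (0.050) and Mrc1 (0.0066) changed sign, and Fcgr1, Gas6 and Mertk were no longer under an unadjusted p of 0.05.

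Directions held in every alternative that gave a value for 16 members: Irf8, Aif1, Cd14, Fcgr1, Fcgr2b, Trem2, Mertk, Gas6, Gpnmb, Folr2, Cbr2, Clec10a, Cd209b, Cd209f, Marco and Timd4. Without wild-type 5, Marco fell below the filter and had no value, with 0.0197 and 0.0293 FPKM left in wild-type against 0, 0.0436 and 0.0366 in mutant mice. The other 22 changed sign at least once, none past the test. Log2 fold changes turned to -0.15 (Lyz2) and -0.081 (Fcgr3) on the FPKM as deposited. With array weights they turned to -0.24 (Cd68), -0.093 (Lyz2), -0.051 (Fcgr3) and -0.090 (Retnla). Without both libraries numbered 5 they turned to -0.0051 (Emr1), -0.085 (Lyz2), -0.017 (Fcgr3) and 0.0032 (Msr1). Relative to the lineage genes they turned to 0.045 (Sirpa), 0.082 (C1qb), 0.094 (C1qc), 0.0047 (Axl) and 0.046 (Mrc1). The cause was not tested.

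With 1 library left out, members whose sign changed ranged from -0.88 to 0.35 (Ptprc), -0.61 to 0.28 (Spi1), -0.57 to 0.21 (Csf1r), -0.79 to 0.34 (Laptm5), -0.57 to 0.22 (Fcer1g), -0.72 to 0.16 (C1qa), -0.45 to 0.29 (C1qb), -0.48 to 0.43 (C1qc), -0.31 to 0.082 (Axl), -0.28 to 0.084 (Msr1), -0.39 to 0.19 (Mrc1), -0.57 to 0.18 (Lyve1) and -0.90 to 0.031 (Siglec1), all above 0 without wild-type 5. The others ranged from -0.28 to 0.66 (Cd68), -0.39 to 0.33 (Lyz2), -0.22 to 0.29 (Fcgr3), -0.18 to 0.89 (Tyrobp), -0.051 to 0.43 (Cd163), -0.25 to 0.11 (Sirpa), -0.16 to 0.48 (Csf2ra), -0.11 to 0.29 (Emr1) and -0.19 to 1.32 (Retnla), below 0 without Plekhg5-deficient 5 except for Cd163, which was below 0 without wild-type 2, and Sirpa, which was above 0 without wild-type 4 or Plekhg5-deficient 5. Read depth is unknown, and no interval from counting could be given.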
